A study of Mus musculus with 14 samples.

Results

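The genes described here mark the bone-forming lineage, and were measured in bone marrow from the distal tibia of adult male mice. They are 10 genes taken by symbol: the transcription factors Runx2 and Sp7 (Osterix), the ectoenzyme Alpl, the osteocalcin genes Bglap and Bglap2, the matrix proteins Ibsp, Spp1 and Sparc, and the genes Dmp1 and Phex, which are used as markers of late osteoblasts and osteocytes. All 10 were among the 23441 genes of the deposited count matrix, and all 10 were among the 17494 genes that passed the filter on low counts and entered the tests. Osteoblasts arise from mesenchymal progenitors of the marrow and bone surface, which also give rise to marrow adipocytes. Runx2 and then Sp7 commit cells to the lineage, maturing osteoblasts lay down collagen and non-collagenous matrix proteins and mineralize them with the help of alkaline phosphatase, and some of them become buried as osteocytes, which regulate phosphate and mineral.

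The study asked how loss of adipose triglyceride lipase (ATGL, encoded by Pnpla2) in bone marrow adipocytes (BMAds) alters the marrow when mice are fed ad libitum (AL) or are calorie restricted (CR). There were 14 samples in 4 groups: BMAd-Pnpla2+/+ AL (n = 4), BMAd-Pnpla2+/+ CR (n = 4), BMAd-Pnpla2-/- AL (n = 3) and BMAd-Pnpla2-/- CR (n = 3). All mice were males of 24 weeks on a mixed C57BL6/SJL background, and CR meant a 30% restriction for 6 weeks. Each sample pooled the distal tibial marrow plugs of a pair of mice. According to the study's methods every mouse, control mice included, carried Osterix-FLPo and the FLPo-activated Adipoq-Cre, and the genotypes were set by the floxed Pnpla2 alleles. Most mice had both copies of each driver, and the number of copies in each group is not given in the sources used here. The Adipoq-Cre insertion lowers adiponectin, and Cre activity was also seen in a small subset of stromal cells. Because FLPo is joined to the Sp7 coding sequence, the Sp7 gene itself was altered in all 4 groups, and whether this affected its counts was not tested. The samples are bulk marrow, in which fewer cells of a type and less RNA per cell cannot be told apart.

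The 14 libraries held 18898324 to 21665553 gene counts. Pnpla2 was measured as the check of the labels: its level was 176 to 305 counts-per-million (CPM) in BMAd-Pnpla2+/+ AL and 509 to 1029 in BMAd-Pnpla2+/+ CR, against 133 to 172 in BMAd-Pnpla2-/- AL and 179.6 to 271 in BMAd-Pnpla2-/- CR. With CR the genotypes differed by a log2 fold change of -1.91 (SE 0.26, adjusted p = 0.0387, edgeR). This call was lost in 9 of 21 alternative analyses, with a highest adjusted p of 0.22. With AL the log2 fold change between the genotypes was -0.57. The lowest adjusted p over 23 alternative analyses (edgeR or DESeq2) was 0.723, so the tests did not separate the AL groups, although their samples did not overlap. In the 3 BMAd-Pnpla2-/- CR libraries 50.1 to 50.49% of stranded reads lay on the first strand, against 4.3 to 4.62% in the other 11 libraries. Counts made without regard to strand were therefore used throughout, and every comparison with the BMAd-Pnpla2-/- CR group sets libraries of one kind against libraries of the other. For the 10 genes together the first-strand share was 48.0% ± 0.345 (SD, n = 3) in BMAd-Pnpla2-/- CR and ran from 0.785 to 1.67% in the other samples.

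Positions are given on the GRCm38 (mm10) build with the exons of GENCODE M21. Dmp1 (chr5:104202613-104214102, 6 merged exons), Ibsp (chr5:104299171-104311469, 7 merged exons) and Spp1 (chr5:104435118-104441050, 8 merged exons) lie close together on the plus strand of chromosome 5, where they belong to a family of secreted phosphoproteins. The other members lie on minus strands. Bglap (chr3:88383501-88384464) and Bglap2 (chr3:88377736-88378699) are neighbours of 4 merged exons each, Alpl is at chr4:137741733-137796384, Sparc at chr11:55394500-55423183, Sp7 at chr15:102356606-102367182, Runx2 at chr17:44495987-44814797 and Phex at chrX:157162075-157415312. Runx2 shares exonic bases with the antisense gene Runx2os1, and Spp1 with the predicted gene Gm42793 on its own strand. Reads that lie in the bases shared by Runx2 and Runx2os1 cannot be assigned to either gene without strand. At Runx2 5.38 to 7.34% of the stranded reads lay on the first strand in the 11 strand-specific libraries.

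The osteocalcin genes Bglap and Bglap2 are near-identical copies, which bears on how far their counts can be read. Their coding sequences are each 288 bases long and differ at 4 bases (98.61% identical). They are shown from the GENCODE M21 transcripts, 5′ to 3′, with the differing bases in capitals.
Bglap: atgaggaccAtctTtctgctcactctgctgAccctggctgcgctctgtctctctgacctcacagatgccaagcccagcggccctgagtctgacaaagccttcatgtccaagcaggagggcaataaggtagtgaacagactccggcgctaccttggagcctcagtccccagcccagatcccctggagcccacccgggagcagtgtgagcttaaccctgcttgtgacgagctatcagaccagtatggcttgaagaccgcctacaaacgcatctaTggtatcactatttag
Bglap2: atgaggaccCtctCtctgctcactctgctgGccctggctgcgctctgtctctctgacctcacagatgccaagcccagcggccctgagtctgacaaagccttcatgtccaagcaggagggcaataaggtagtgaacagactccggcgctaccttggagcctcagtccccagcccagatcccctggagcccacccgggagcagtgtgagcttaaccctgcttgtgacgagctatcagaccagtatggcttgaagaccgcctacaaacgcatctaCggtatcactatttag
Counted from 1 at the A of the start codon, the differences from Bglap to Bglap2 are A10C, T14C, A31G and T273C. Of the 341 distinct windows of 100 bases (the length of a read) in the Bglap transcript, 192 (56.3%) are also found in the Bglap2 transcript. A read pair of which both mates fall in shared sequence has no unique position. How the authors' counting treated such reads is not given in the sources used here. The levels and the separate changes of Bglap and Bglap2 are therefore uncertain. Bglap3, the third gene of the cluster, reached at most 6 counts in any sample and was not tested.

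Levels were compared between the genes per length, as CPM per kilobase of merged exons. In BMAd-Pnpla2+/+ AL marrow the order was Sparc (160.9 ± 40.0 CPM per kilobase, SD, n = 4), Spp1 (109 ± 39.1), Ibsp (105 ± 51.4), Bglap2 (15.9 ± 9.66), Bglap (13.8 ± 7.43), Alpl (11.03 ± 2.81), Runx2 (7.59 ± 0.761), Phex (4.93 ± 0.46), Sp7 (3.53 ± 0.837) and Dmp1 (0.888 ± 0.513). Neighbours in this order overlapped between samples except at 3 steps. The lowest Ibsp sample (55.7) exceeded the highest Bglap2 sample (27.9), the lowest Runx2 sample (6.94) exceeded the highest Phex sample (5.44), and the lowest Sp7 sample (2.53) exceeded the highest Dmp1 sample (1.49). The genes for abundant matrix proteins thus stood well above the transcription factors, and Dmp1 was the lowest in all 4 groups.

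**Figure D1:**
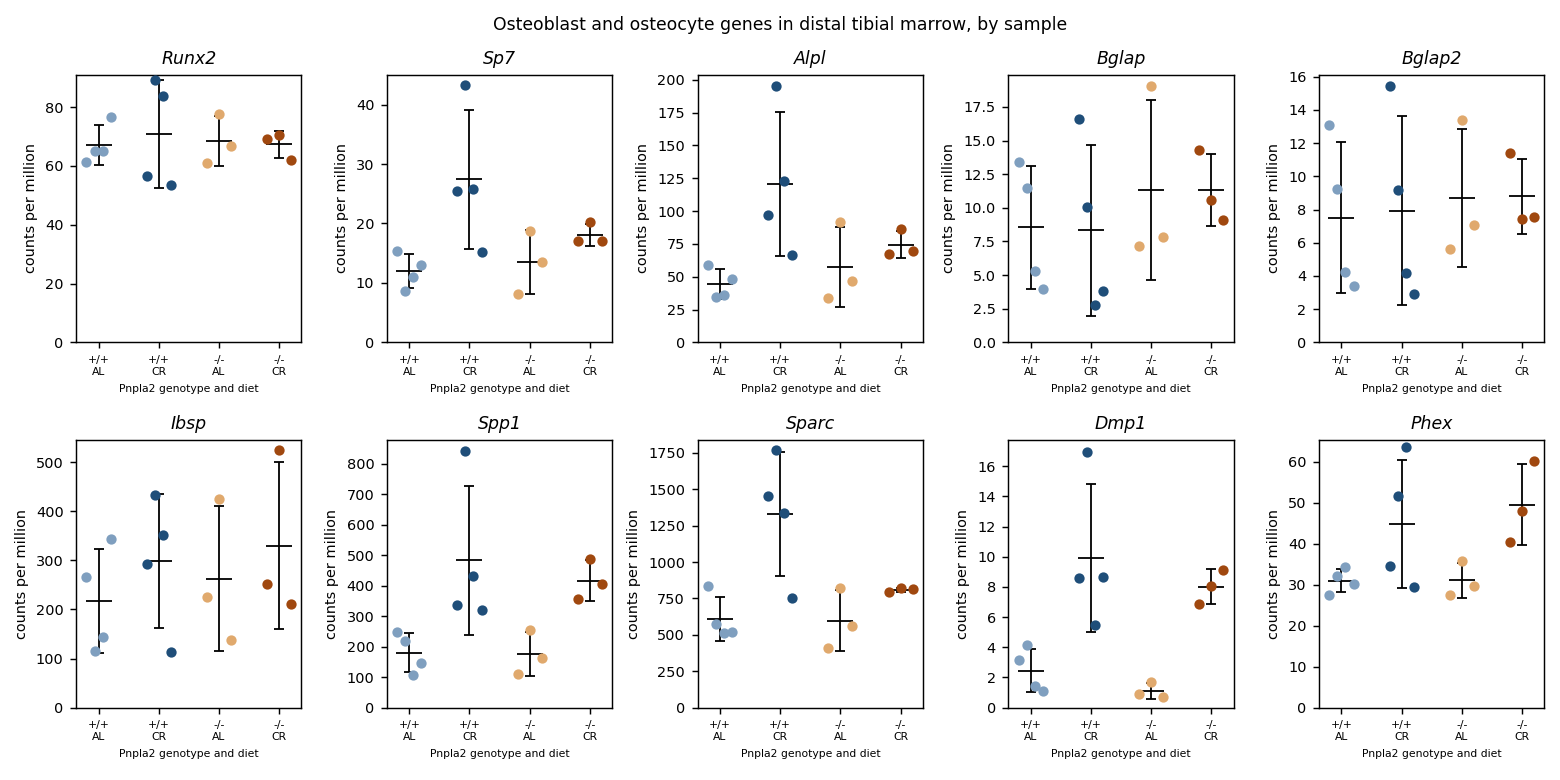
Level of each gene in every sample, in counts-per-million (CPM) without strand on a linear axis that starts at 0, for the 4 groups of Pnpla2 genotype and diet. Points are samples (n = 4, 4, 3 and 3), and bars are the mean and SD. Dmp1 and Spp1 were higher in every CR sample than in any AL sample of the same genotype, whereas the Bglap and Bglap2 samples overlapped in all groups.

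The first comparison was CR against AL in BMAd-Pnpla2+/+ mice. A gene was called when its adjusted p was under 0.05 and its log2 fold change was over 1 in size (edgeR quasi-likelihood test, Benjamini-Hochberg over all 17494 genes). By this rule 5 of the 10 genes rose with CR (Dmp1, Alpl, Spp1, Sp7 and Sparc) and none fell. Over all genes tested 9.19% were called in either direction and 7.26% were called higher. These 1608 genes fell to 1041 without CR replicate 2 and to 1045 without CR replicate 3. Their number rose to 2238 without CR replicate 4 and to 1891 under DESeq2. The adjusted p alone called the same 5 genes, against 26.0% of all genes. The median log2 fold change of the 10 genes was 0.83, beside 0.00 over all genes tested. Their summed level was 921 to 1539 CPM with AL and 1370 to 3461 CPM with CR, so that the groups overlapped.

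Of the transcription factors, Runx2, the early regulator of the lineage, was at 61.3, 65.2, 65.0 and 76.8 CPM in the AL samples and at 56.4, 89.3, 83.7 and 53.5 CPM in the CR samples. The CR samples lay on both sides of the AL samples, and the log2 fold change of 0.08 (95% interval -0.25 to 0.41, adjusted p = 0.734) bounds a change of the mean to well under the fold required for a call. Sp7, which acts downstream of Runx2, was at 15.3, 8.61, 11.1 and 12.9 CPM with AL and at 25.5, 43.3, 25.8 and 15.1 CPM with CR. All CR samples but replicate 4 exceeded the highest AL sample. Sp7 rose by a log2 fold change of 1.19 (SE 0.30, adjusted p = 0.0151), but without CR replicate 2 the log2 fold change was 0.89 (adjusted p = 0.0424) and no longer met the fold criterion.

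Alpl encodes the tissue-nonspecific alkaline phosphatase, which removes pyrophosphate so that matrix can mineralize. It was at 58.8, 34.5, 36.4 and 48.2 CPM with AL and at 96.7, 196, 123 and 66.8 CPM with CR. Every CR sample exceeded every AL sample, with a log2 fold change of 1.44 (SE 0.34, adjusted p = 0.0113). Alpl is on a list of skeletal genes that the study chose on these samples, so its direction here is not independent evidence.

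Spp1 (osteopontin) and Ibsp (bone sialoprotein) are acidic phosphoproteins of mineralized matrix. Spp1 was at 247, 219, 106 and 148 CPM with AL and at 336, 841, 433 and 321 CPM with CR. The groups did not overlap, CR replicate 2 stood well above the rest, and the log2 fold change was 1.42 (SE 0.35, adjusted p = 0.0136). Ibsp was at 267, 115, 145 and 343 CPM with AL and at 293, 433, 352 and 113 CPM with CR. Here CR replicate 4 was the lowest of the 8 samples, and the log2 fold change of 0.46 (95% interval -0.56 to 1.47, adjusted p = 0.49) was within the spread between samples. Sparc (osteonectin), a collagen-binding glycoprotein that other stromal cells also make, was at 833, 572, 513 and 519.8 CPM with AL and at 1452, 1770.1, 1338 and 756 CPM with CR. The samples overlapped only through AL replicate 1 and CR replicate 4. Sparc rose by a log2 fold change of 1.12 (SE 0.26, adjusted p = 0.00973), which was 0.96 (adjusted p = 0.0287) without CR replicate 2 and so under the fold criterion.

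Osteocalcin is a late product of osteoblasts. Bglap was at 13.4, 11.4, 5.32 and 3.99 CPM with AL and at 16.6, 10.04, 2.8 and 3.85 CPM with CR, and Bglap2 at 13.1, 9.25, 4.23 and 3.41 CPM against 15.5, 9.16, 4.2 and 2.89 CPM. Both genes varied several-fold within each diet, with largely the same samples high and low. Their log2 fold changes were -0.04 (95% interval -1.20 to 1.13) for Bglap and 0.08 (95% interval -1.04 to 1.20) for Bglap2, intervals wide enough to hold a change past the fold criterion in either direction.

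Dmp1, a phosphoprotein of late osteoblasts and osteocytes that acts in mineralization and phosphate balance, had the largest fold change of the 10 genes. It was at 3.13, 4.12, 1.46 and 1.11 CPM with AL (23 to 77 counts) and at 8.6, 16.9, 5.46 and 8.67 CPM with CR (121 to 366 counts). The groups did not overlap, and the log2 fold change was 2.02 (SE 0.42, adjusted p = 0.00676). At these low counts 1.3 to 21.7% of the stranded Dmp1 reads in the AL samples lay on the first strand, against 1.23 to 4.13% with CR, and counts of the reverse strand alone gave a log2 fold change of 2.04 (adjusted p = 0.0174). Phex, a membrane peptidase of osteoblasts and osteocytes whose loss causes hypophosphataemia, was at 27.4, 32.1, 34.2 and 30.3 CPM with AL and at 34.6, 51.7, 63.6 and 29.4 CPM with CR. Its log2 fold change was 0.53 (95% interval 0.08 to 0.98, adjusted p = 0.0751), which did not pass. In all, 3 of the 10 genes (Alpl, Spp1 and Dmp1) had no overlap between the diets, against 22.7% of all genes tested.

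**Figure D2:**
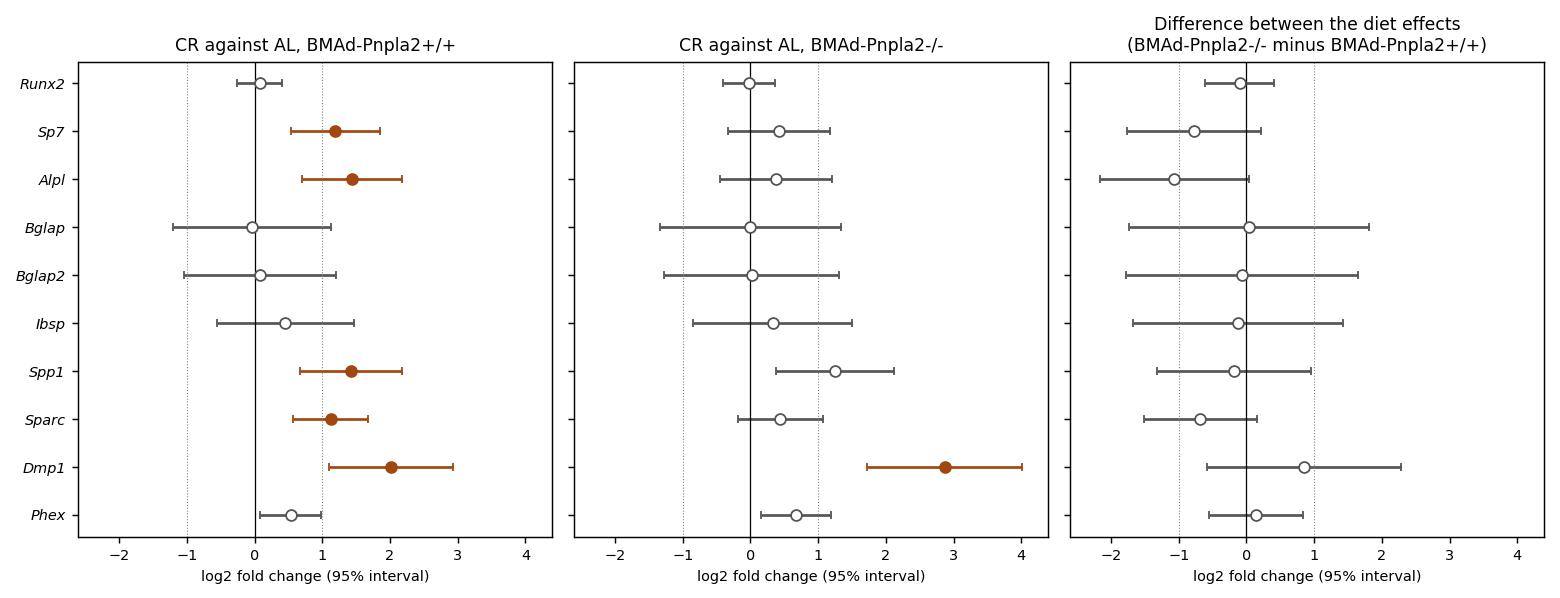
Log2 fold change of each gene with its 95% interval for CR against AL in each genotype, and for the difference between the diet effects (BMAd-Pnpla2-/- minus BMAd-Pnpla2+/+). Filled points passed both criteria and dotted lines mark a log2 fold change of 1 in either direction. In BMAd-Pnpla2+/+ mice 5 genes passed, in BMAd-Pnpla2-/- mice Dmp1 passed, and every interval of the difference between the diet effects held 0.

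The second comparison was CR against AL in BMAd-Pnpla2-/- mice, with 3 samples a group. Of the 10 genes, 1 rose (Dmp1) and none fell, where 3.52% of all genes tested were called in either direction, 2.59% were called higher and 11.6% passed on the adjusted p alone. The 615 genes called fell to 172 without AL replicate 1, 192 without AL replicate 3, 300 without CR replicate 2 and 124 without CR replicate 3, and numbered 1655 with the deposited matrix. The median log2 fold change of the 10 genes was 0.40, beside 0.05 over all genes tested. Their summed level was 889 to 1759 CPM with AL and 1632 to 2088 CPM with CR. The diets did not overlap for 3 of the 10 genes (Spp1, Dmp1 and Phex), which is no more than the 37.8% of all genes tested whose groups did not overlap.

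Dmp1 was at 0.881, 1.71 and 0.697 CPM with AL (13 to 32 counts) and at 6.88, 8.05 and 9.15 CPM with CR (129 to 184 counts). Every CR sample lay above every AL sample, by a log2 fold change of 2.87 (SE 0.53, adjusted p = 0.00963). Of its stranded reads in the AL samples 12.5 to 31.2% lay on the first strand. Spp1 was at 111, 255 and 162 CPM with AL and at 356, 489 and 405 CPM with CR. These groups did not overlap either, with a log2 fold change of 1.25 (SE 0.40, adjusted p = 0.0615) that missed the threshold. It passed under 6 of the 21 alternative analyses, among them the DESeq2 test (adjusted p = 0.0186) and the fit without AL replicate 2 (log2 fold change 1.61, adjusted p = 0.0377). Phex was at 27.5, 35.9 and 29.8 CPM with AL and at 40.5, 48.0 and 60.1 CPM with CR, with a log2 fold change of 0.67 (95% interval 0.15 to 1.19, adjusted p = 0.0847).

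For the other genes the BMAd-Pnpla2-/- samples overlapped between the diets. Sp7 was at 8.15, 18.8 and 13.6 CPM with AL and at 17.1, 20.2 and 17.0 CPM with CR (log2 fold change 0.42, 95% interval -0.33 to 1.17). Alpl was at 33.4, 91.8 and 47.1 CPM against 67.6, 86.0 and 69.9 CPM (0.38, 95% interval -0.46 to 1.21). Sparc was at 408, 821 and 561 CPM against 796, 824 and 813 CPM (0.44, 95% interval -0.19 to 1.08). In all 3 genes AL replicate 2 exceeded the lowest CR sample while the other AL samples were below it, and the upper end of the interval passed the fold criterion. Runx2 was at 61.2, 77.7 and 66.7 CPM against 69.3, 70.7 and 62.1 CPM (-0.02, 95% interval -0.41 to 0.36). Ibsp was at 226, 426 and 137 CPM against 252, 525 and 212 CPM (0.33, 95% interval -0.85 to 1.498). Bglap (7.16, 19.1 and 7.83 CPM against 14.3, 10.6 and 9.1 CPM) and Bglap2 (5.62, 13.4 and 7.08 CPM against 11.4, 7.41 and 7.56 CPM) had log2 fold changes of -0.0046 and 0.015.

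The difference between the diet effects of the genotypes was tested directly. No member passed, none had an unadjusted p under 0.05, and 0.0% of all genes tested were called (edgeR; 1824 genes had an unadjusted p under 0.05, DESeq2 called 11 and the deposited matrix, which mixes strand settings, gave 484). For Alpl the CR effect in BMAd-Pnpla2-/- mice minus that in BMAd-Pnpla2+/+ mice was a log2 value of -1.06 (95% interval -2.16 to 0.04, unadjusted p = 0.0574, adjusted p = 0.497, edgeR). For Sp7 the difference was -0.77 (95% interval -1.76 to 0.22) and for Sparc -0.68 (95% interval -1.52 to 0.15), whereas for Dmp1 it was 0.85 (95% interval -0.58 to 2.28). These values depended on single samples. Without BMAd-Pnpla2-/- AL replicate 2 they were -0.55 for Alpl, -0.46 for Sp7, -0.39 for Sparc and 1.32 for Dmp1. Without BMAd-Pnpla2-/- AL replicate 1 those of Alpl, Sp7 and Sparc moved the other way, to -1.33, -1.03 and -0.89. That of Dmp1 was 0.49 without BMAd-Pnpla2+/+ AL replicate 2. The calls of Sp7, Alpl, Spp1 and Sparc in BMAd-Pnpla2+/+ mice and not in BMAd-Pnpla2-/- mice were therefore not shown to differ between the genotypes. At 3 and 4 samples a group the intervals still allowed differences of more than 2-fold for 8 of the 10 genes.

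Within a diet the genotypes were compared as well. With AL no member passed and 0.0% of all genes tested were called (edgeR; 694 genes had an unadjusted p under 0.05, and DESeq2 called 12). Dmp1 had the largest difference, at a log2 fold change of -1.15 (95% interval -2.26 to -0.05, unadjusted p = 0.0424, adjusted p = 1, edgeR), on 13 to 32 counts against 23 to 77. With CR no member passed either, and 0.0114% of all genes tested were called. The 2 genes of this share became 410 without BMAd-Pnpla2+/+ CR replicate 4, at most 23 without any other sample, 119 under DESeq2 and 1056 with the deposited matrix. Sparc was at 796 to 824 CPM in BMAd-Pnpla2-/- CR against 756 to 1770.1 CPM in BMAd-Pnpla2+/+ CR (log2 fold change -0.71, 95% interval -1.31 to -0.11, unadjusted p = 0.0235, adjusted p = 0.157, edgeR). Of the 10 genes 1, Sparc, had an unadjusted p under 0.05 here, as did 4052 of the 17494 genes tested (edgeR). Alpl and Sp7 had log2 fold changes of -0.69 (95% interval -1.48 to 0.09) and -0.60 (95% interval -1.30 to 0.10). They were -0.36 and -0.29 without BMAd-Pnpla2+/+ CR replicate 2, and -0.89 and -0.80 without BMAd-Pnpla2+/+ CR replicate 4. For the remaining 7 genes the log2 fold change between genotypes with CR was 0.44 or less in size. This comparison sets the unstranded BMAd-Pnpla2-/- CR libraries against strand-specific ones, and the part of library kind in it cannot be told apart from that of genotype.

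Samples of a group differed from each other in a way that many of the genes shared. In BMAd-Pnpla2+/+ CR, replicate 2 had the highest level of 7 of the 10 genes and replicate 4 the lowest of 8. In BMAd-Pnpla2-/- AL, replicate 2 was the highest for 10 of the 10 genes and replicate 1 the lowest for 8. After each group's mean was removed, log2 CPM of Sp7 and Alpl had a Pearson correlation of 0.96 over the 14 samples, Sp7 and Sparc one of 0.89, and Alpl and Sparc one of 0.88. Bglap and Bglap2 had one of 0.96, and the part of reads from their shared sequence in it was not tested. Of the 45 gene pairs 14 had a correlation over 0.7 and 3 one below 0, all 3 with Bglap or Bglap2 against Runx2 or Phex. The samples share libraries and depth across genes, so these values are descriptions.

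**Figure D3:**
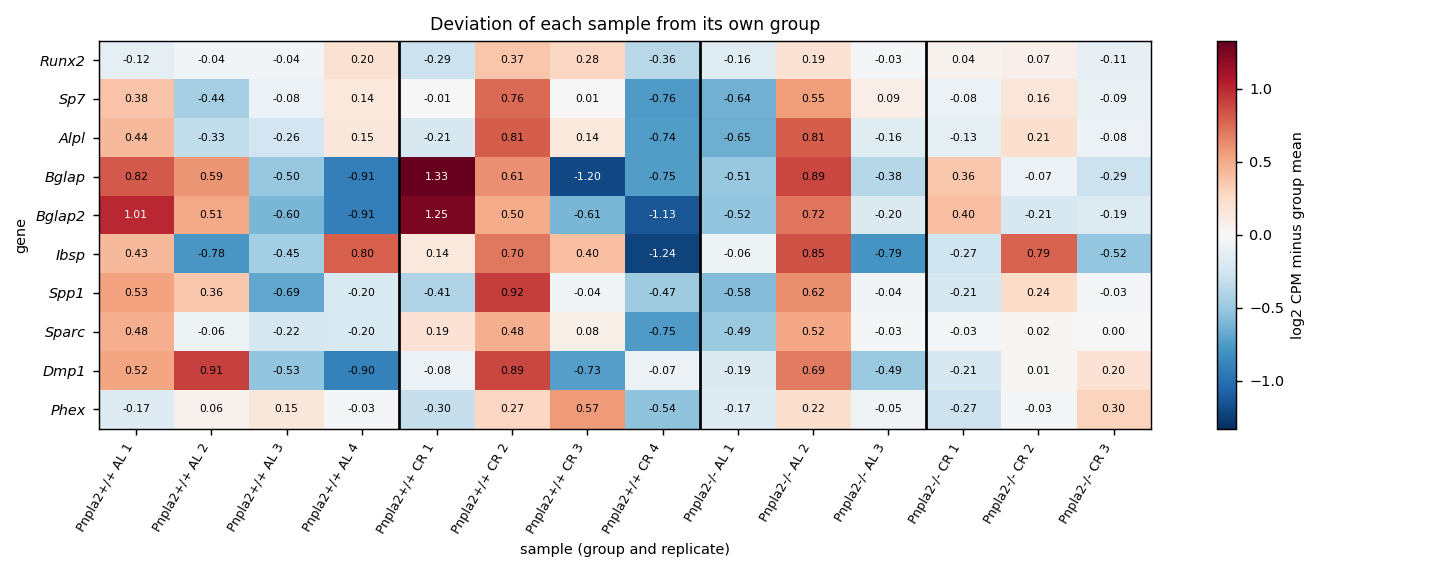
Deviation of each sample from the mean of its own group, in log2 CPM, for the 10 genes (rows) and 14 samples (columns, with lines between the groups). Red is above and blue below the group mean. BMAd-Pnpla2+/+ CR replicate 2 and BMAd-Pnpla2-/- AL replicate 2 were above their group mean in 10 of 10 genes, while BMAd-Pnpla2+/+ CR replicate 4 was below it in 10 of 10.

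Genes outside the 10 whose pattern was most like each of them were taken as the 3 with the highest Pearson correlation of log2 CPM over the 14 samples. Sp7 was nearest to Nbl1 (r = 0.97), Unc5b (0.97) and Mapre3 (0.96), and Alpl to Nfatc4 (0.98), Hoxd8 (0.97) and Spsb1 (0.97). Sparc was nearest to Echdc2 (0.97), Col6a3 (0.97) and Mmrn2 (0.97), and Spp1 to Loxl2 (0.97), 2510009E07Rik (0.96) and Col12a1 (0.96). Dmp1 was nearest to Bmp3 (0.95), Ryk (0.93) and Ccn2 (0.93), and Phex to Slc26a7 (0.95), Slc12a2 (0.95) and Slc35g1 (0.94). Runx2, Ibsp, Bglap and Bglap2 had lower highest values, and a different company. Runx2 was nearest to the immunoglobulin genes Igkv3-7 (0.89) and Igkv6-13 (0.88) and to Lrp12 (0.83), and Ibsp to Cish (0.90), Cox4i2 (0.86) and Ighv15-2 (0.85). Bglap was nearest to Lrrn3 (0.74), Mex3c (0.73) and Btbd1 (0.73), and Bglap2 to Dnajc3 (0.77), Ighv1-20 (0.71) and Lrrn3 (0.70).

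A further list of 20 osteoblast genes gave the setting of the 10. Of these, 18 were tested, and 8 rose with CR in BMAd-Pnpla2+/+ mice and none fell, with a median log2 fold change of 1.11, beside 9.19% of all genes called, 7.26% called higher and an all-gene median of 0.00. They were Panx3 (log2 fold change 2.45, adjusted p = 0.00297), a channel protein of differentiating osteoblasts, the type I collagen genes Col1a1 (1.92, adjusted p = 0.0353) and Col1a2 (1.45, adjusted p = 0.021), the homeobox gene Dlx3 (1.63, adjusted p = 0.0461), the vitamin D receptor Vdr (1.34, adjusted p = 0.00248), the parathyroid hormone receptor Pth1r (1.33, adjusted p = 0.00984), the sphingomyelinase Smpd3 (1.27, adjusted p = 0.0418) and the cadherin Cdh11 (1.10, adjusted p = 0.00738). Col1a1, Col1a2, Vdr and Pth1r are also on the list the study chose on these samples. The count of 8 fell to 4 when the fit held the 2 groups compared alone, to 4 without AL replicate 3, to 5 (4 of them higher) without AL replicate 4 and to 4 (3 of them higher) without CR replicate 2. It was 5 without the BMAd-Pnpla2-/- CR samples in the fit. Panx3, Vdr and Pth1r were called in each of these, whereas over the 23 alternative analyses the call of Dlx3 was lost in 12, that of Smpd3 in 10, that of Col1a1 in 8 and that of Col1a2 in 4. Against the direction of these genes stood Atf4, a stress-response transcription factor that osteoblasts also use, at -0.47 (adjusted p = 0.00869), and the phosphatase Phospho1 at -0.99 (adjusted p = 0.0171), both short of the fold criterion. Phospho1 passed it, as lower, in 9 of 23 alternative analyses.

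In BMAd-Pnpla2-/- mice no gene of this list passed both criteria, and the median log2 fold change was 0.70. Col1a1 was at 266 to 583 CPM with AL and at 669.6 to 1133 CPM with CR (log2 fold change 1.14, 95% interval -0.34 to 2.62, adjusted p = 0.293), groups that did not overlap, and passed in the fit of the 2 groups alone (1.11, adjusted p = 0.0436). Panx3 was at 0.331 to 1.55 CPM against 1.49 to 2.13 CPM (1.003, 95% interval -0.04 to 2.04). The largest value was that of the collagenase Mmp13 (1.95, adjusted p = 0.067), named here after its values were seen. It was called under the DESeq2 test, with the counts of the deposited matrix and in the fit of the 2 groups alone, among others.

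Some of the genes listed for osteocytes were at or near 0 in these marrow plugs, while Phex (27.4 to 63.6 CPM) and the kinase gene Fam20c (8.36 to 32.0 CPM) were not. Of 8 further osteocyte genes 5 were tested, and Ptprz1, a receptor phosphatase, rose with CR in BMAd-Pnpla2+/+ mice (log2 fold change 1.46, adjusted p = 0.0446), a call that was lost in 15 of 23 alternative analyses. In BMAd-Pnpla2-/- mice it was at 0.551 to 1.02 CPM with AL and 1.74 to 2.13 CPM with CR, groups that did not overlap, with a log2 fold change of 1.34 (adjusted p = 0.147) that passed in the fit of the 2 groups alone (1.31, adjusted p = 0.0275). Dspp reached at most 2 counts and Fgf23 at most 10 counts in any sample, and neither was tested. Sost, the defining secreted product of mature osteocytes, reached at most 5 counts and was above 0 in 2 of 14 samples. Mepe was at 0.881 to 2.4 CPM with AL and 1.17 to 3.19 CPM with CR in BMAd-Pnpla2+/+ mice (log2 fold change 0.30, 95% interval -0.79 to 1.39), and this phosphoprotein gene, a relative of Dmp1, did not pass in either genotype.

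**Figure D4:**
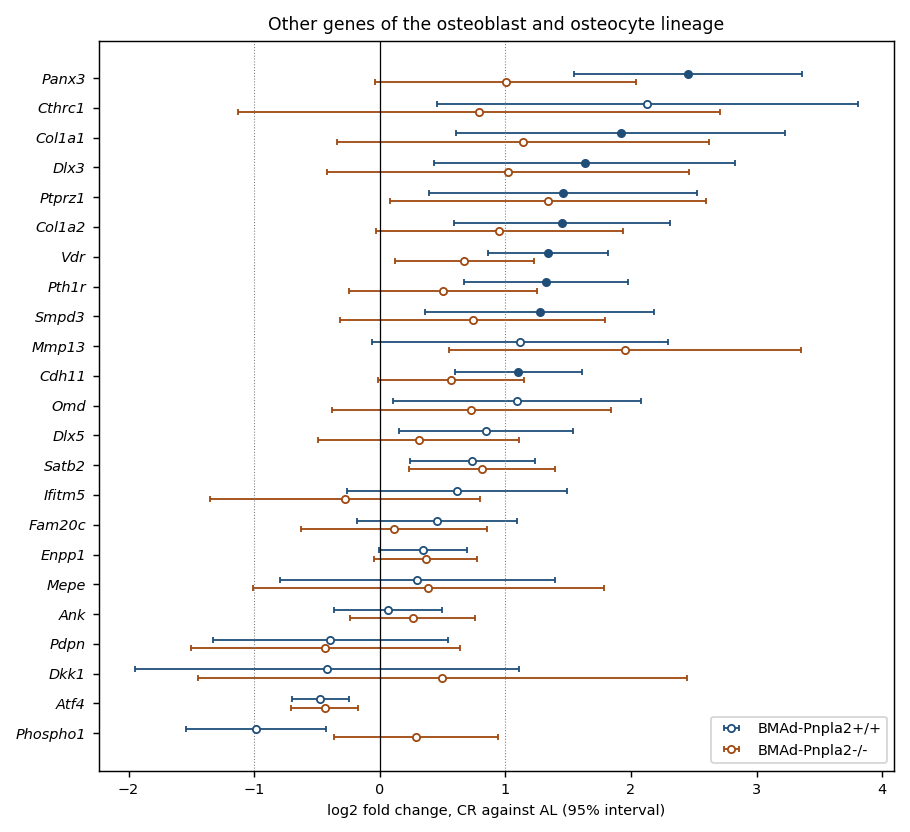
Log2 fold change with 95% interval for CR against AL of the 23 tested genes of the further osteoblast and osteocyte lists, ordered by the value in BMAd-Pnpla2+/+ mice (blue) with the value in BMAd-Pnpla2-/- mice below it (brown). Filled points passed both criteria. The filled points are 9 genes of BMAd-Pnpla2+/+ mice, and Atf4 and Phospho1 lie at the lower end.

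Several of the 10 genes are known to be made by other cells that a marrow plug holds, so marker lists of those cells were summed in each sample. Osteoclast genes (Spp1 is also an osteoclast product) rose with CR in BMAd-Pnpla2+/+ mice in 6 of 8 cases, and their sum was 279 to 460.2 CPM with AL and 415 to 1546 CPM with CR. The highest sum, 1546 CPM, was that of CR replicate 2, which also had the highest Spp1. In BMAd-Pnpla2-/- mice no osteoclast gene passed, and the sum was 275 to 337 CPM with AL and 459 to 478 CPM with CR. Of 8 macrophage genes 1 rose in each genotype, and the sums overlapped between the diets. Marrow stromal genes (Sparc and Alpl are also stromal products) held 8 members, of which none was called in BMAd-Pnpla2+/+ mice while 1 was called under the BMAd-Pnpla2-/- genotype, with sums of 4409 to 5469 CPM with AL and 5149 to 9369 CPM with CR in BMAd-Pnpla2+/+ mice. Beside these counts, 9.19% of all genes tested were called with CR in the BMAd-Pnpla2+/+ genotype, against 3.52% in the BMAd-Pnpla2-/- genotype. Of 5 endothelial genes 1 rose in BMAd-Pnpla2+/+ mice, and 4 passed on the adjusted p alone, as did 26.0% of all genes tested. Their median log2 fold change was 0.77, and their sums overlapped, at 301 to 436.5 CPM with AL and 362 to 689 CPM with CR. No endothelial gene was called under the BMAd-Pnpla2-/- genotype. Megakaryocyte genes, whose cells also make Sparc, moved the other way, with 2 of 7 lower in BMAd-Pnpla2+/+ mice.

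The adipocyte list had the largest median change of these lists in BMAd-Pnpla2+/+ mice (log2 fold change 1.90), with 8 of 8 genes higher with CR in BMAd-Pnpla2+/+ mice (sum 691 to 1751 CPM with AL, 1917 to 4734 CPM with CR) and 7 of 8 in BMAd-Pnpla2-/- mice (332 to 733 CPM with AL, 1236 to 2003 CPM with CR). Neutrophil genes took a smaller share with CR in BMAd-Pnpla2+/+ mice, with a sum of 12280 to 15540 CPM against 5656 to 9490 CPM, groups that did not overlap, and 1 of 6 genes past both criteria. Of 4 plasmacytoid dendritic cell genes, cells that also use Runx2, 1 was lower in BMAd-Pnpla2+/+ mice, and the sums of 30.0 to 60.9 CPM with AL and 34.5 to 44.3 CPM with CR overlapped. Chondrocyte genes were few, with 2 of 8 tested and none called, and 3 of 8 had at most 3 counts in any sample. Their sum was 47.7 to 116 CPM with AL and 84.3 to 383 CPM with CR in BMAd-Pnpla2+/+ mice, where CR replicate 2 was again the highest. In BMAd-Pnpla2-/- mice it was 25.4 to 63.4 CPM against 89.7 to 136 CPM, groups that did not overlap. Muscle genes had no call and a sum of up to 115 CPM in a BMAd-Pnpla2-/- CR sample against up to 26.3 CPM in all other groups. The part of these cells in the changes of the 10 genes was not tested.

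The promoters of the genes were searched for the core of the Runx binding motif, because several of these genes are textbook targets of Runx2. RefSeq starts (GRCm38.p6) with 250 bases before and 50 after were at hand for 8 of the 10 genes, 11 starts in all, and not for Sp7 and Bglap2. The letters ACCACA on either strand were found at 5 of the 11 starts and in 5 of the 8 genes (Runx2, Bglap, Spp1, Dmp1 and Sparc), and in 16.8% of all 32851 promoters of this length. The matches before the start lay at -80 in Runx2, -132 in Bglap, -128 in Spp1 and -164 in Dmp1, counted from the start to the first base of the match, and Sparc had its match after the start. The sequences of Bglap, Spp1 and Dmp1 from -200 to -11 are shown, since these genes share the letters and differ in their change with CR, with the match in capitals. The Bglap stretch is chr3:88384477-88384666 on the minus strand, that of Spp1 is chr5:104434911-104435100 and that of Dmp1 is chr5:104202417-104202606, both on the plus strand.
Bglap: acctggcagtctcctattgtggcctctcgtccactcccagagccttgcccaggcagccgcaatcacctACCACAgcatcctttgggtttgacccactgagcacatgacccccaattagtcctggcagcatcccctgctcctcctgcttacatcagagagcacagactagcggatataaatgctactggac
Spp1: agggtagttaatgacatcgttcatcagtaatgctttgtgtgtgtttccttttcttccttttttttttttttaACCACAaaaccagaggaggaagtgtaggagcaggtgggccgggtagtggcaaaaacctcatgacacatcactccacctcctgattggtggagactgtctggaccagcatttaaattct
Dmp1: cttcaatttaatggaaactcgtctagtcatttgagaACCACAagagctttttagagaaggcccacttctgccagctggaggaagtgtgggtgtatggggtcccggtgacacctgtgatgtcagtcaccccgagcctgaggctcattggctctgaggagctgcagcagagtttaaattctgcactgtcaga
Among the genes with a match in these windows Spp1, Dmp1 and Sparc rose with CR in BMAd-Pnpla2+/+ mice and Bglap and Runx2 had log2 fold changes of -0.04 and 0.08. Among those without it Alpl rose (1.44) and Ibsp and Phex did not pass (0.46 and 0.53). A match is a run of letters and not a bound site.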

How the data were processed

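Libraries of mRNA from distal tibial marrow, strand-specific by the study's methods but not by the counts of the 3 BMAd-Pnpla2-/- CR samples, with each sample pooled from a pair of mice, were sequenced as read pairs of 100 bases. Per the labels and the study's methods the authors checked reads with FastQC 0.11.9 and aligned them with STAR to mm10. The authors deposited, for each sample, raw read counts per gene (3 columns: unstranded, first strand, reverse strand) and a matrix of raw counts. In 3 of the 4 groups the matrix holds the reverse-strand counts, and in BMAd-Pnpla2-/- CR the counts without strand, so the counts without strand were used for all 14 samples.

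Counts of the 23441 matrix genes were filtered with filterByExpr (17494 kept), normalized by TMM and tested with edgeR 4.0.16 (robust quasi-likelihood, one model of the 4 groups, 5 contrasts) in R 4.3.3. Genes with an adjusted p under 0.05 (Benjamini-Hochberg over all genes tested) and an absolute log2 fold change over 1 were called. CPM used TMM-scaled library sizes, and log2 CPM a prior count of 2. DESeq2 1.42.0, other scalings and filters, the deposited matrix, reverse-strand counts, a replicate block and leaving out each sample were alternatives. The genes and lists were chosen with earlier results of these data known. Named beside the 10 genes were those of the further osteoblast and osteocyte lists past both criteria in either diet comparison (at most 12), those with at most 3 counts, and the 3 nearest in pattern among genes averaging 50 counts or more. No pair of replicates agreed within sampling noise. Intervals are at 95%, and p-values measure the spread between pools.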

Additional observations from a re-analysis of the deposited data

Results flagged for a closer look

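A signal stood out in the split of the reads by strand. The main comparisons did not use that split, as they counted reads without regard to strand. Of the stranded reads of the 10 genes in the BMAd-Pnpla2-/- CR samples, 48.0% lay on the first strand. That strand is opposite to the one that held nearly all of them in the other groups, where the share ran from 0.785 to 1.67%. The share over all genes in the BMAd-Pnpla2-/- CR libraries was 50.1 to 50.49%, close to that of the 10 genes. Among the genes the share in BMAd-Pnpla2-/- CR was lowest for Dmp1 (39.1 to 43.4%) and highest for Bglap (56.8 to 62.3%). Its part in the comparisons with that group was not tested. No sample of the 2 groups of 4 stood apart from its group by Dixon's test in any of the 10 genes (20 groups tested, of which chance would flag about 1 in 20).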

How the results depend on the processing

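The counts of called genes depended little on the processing in BMAd-Pnpla2+/+ mice. CR against AL gave 5 genes under 10 of 10 alternatives that left out no single sample, the fit without the BMAd-Pnpla2-/- CR samples (chosen after seeing the data) among them, and 3 to 5 when a sample was left out, with 3 (Alpl, Dmp1 and Spp1) without BMAd-Pnpla2+/+ CR replicate 2. In BMAd-Pnpla2-/- mice the count was 1 in the main analysis and 2 (Dmp1 and Spp1) with the counts of the deposited matrix, under DESeq2, with the 2 groups alone and with the replicate block, and 1 to 2 when a sample was left out. The 3 other comparisons gave 0 under every alternative run. Same-numbered samples of different groups had correlations of -0.37 to 0.33 (median 0.02, with 7 of 19 pairs over 0.1). Differently numbered samples had -0.44 to 0.36 (median -0.01, with 16 of 54 pairs over 0.1). No pairing by replicate number was seen in these values, which cannot exclude one. The replicate block gave 5, 2, 0, 0 and 0 genes.

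No called value of the 10 genes changed sign. The sign changed in 93 of 1080 values, all of genes that were not called, and 77 of these came from leaving out a sample. For CR against AL in BMAd-Pnpla2+/+ mice the log2 values ran from -0.055 to 0.19 for Runx2, from -0.66 to 0.27 for Bglap and from -0.51 to 0.50 for Bglap2. For CR against AL in BMAd-Pnpla2-/- mice the log2 values ran from -0.14 to 0.073 for Runx2, from -0.29 to 0.59 for Bglap, from -0.26 to 0.47 for Bglap2 and from -0.18 to 0.86 for Ibsp. For genotype with AL the log2 values ran from -0.068 to 0.11 for Runx2, from -0.14 to 0.43 for Sp7, from -0.14 to 0.64 for Alpl, from -0.19 to 0.72 for Bglap, from -0.24 to 0.63 for Bglap2, from -0.26 to 0.58 for Ibsp, from -0.40 to 0.22 for Spp1, from -0.33 to 0.18 for Sparc and from -0.11 to 0.085 for Phex. For genotype with CR the log2 values ran from -0.18 to 0.061 for Runx2, from -0.13 to 0.71 for Bglap2, from -0.36 to 0.38 for Ibsp, from -0.36 to 0.20 for Spp1, from -0.51 to 0.085 for Dmp1 and from -0.020 to 0.36 for Phex. For the difference between the diet effects the log2 values ran from -0.21 to 0.031 for Runx2, from -0.27 to 0.63 for Bglap, from -0.48 to 0.49 for Bglap2, from -0.64 to 0.40 for Ibsp, from -0.42 to 0.23 for Spp1 and from -0.024 to 0.36 for Phex. With no sample left out the log2 value of Bglap for CR against AL became 0.0019 with total counts alone in BMAd-Pnpla2+/+ mice, and 0.062 with total counts alone and 0.030 with the replicate block in BMAd-Pnpla2-/- mice, where that of Runx2 became 0.047 with total counts alone. There the value of Bglap2 became -0.020 with DESeq2 size factors, -0.028 with no low-count filter, -0.024 under DESeq2, -0.019 with the 2 groups alone and -0.0091 with the replicate block. For genotype with AL the replicate block gave -0.0041 for Runx2, -0.014 for Sp7 and -0.092 for Phex, and Phex was at -0.0033 with the deposited matrix and at -0.017 with total counts alone. For the difference between the diet effects Bglap was at -0.029 with no low-count filter and at -0.0008 under DESeq2. The cause was not tested.

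Depth limits Dmp1, Bglap and Bglap2 most, with fewer than 400 counts in every sample. Panx3, Dlx3, Ptprz1 and Mepe had fewer still. With total counts alone CR against AL in BMAd-Pnpla2-/- mice had an all-gene median log2 value of 0.12, against 0.05 with TMM.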
